A study of Mus musculus with 6 samples.

Results

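Intestinal stem cell genes were examined in colon tumors and colon tissue of mice, as the rows of the deposited gene table with the symbols *Lgr5*, *Ascl2*, *Smoc2*, *Rgmb*, *Olfm4*, *Prom1*, *Lrig1*, *Sox9*, *Cd44* and *Bmi1*. These are 10 of the 33573 genes in the table. RNA-seq was performed on 3 tumor and 3 colon libraries of C57BL/6 mice, and both groups came from animals with colorectal cancer induced by AOM/DSS, that is, the carcinogen azoxymethane followed by repeated rounds of dextran sodium sulfate, an agent that damages the gut lining. The tumor group carries the cell type label tumor cell and the colon group the label normal colon cell, yet both were frozen pieces of tissue. The colon therefore came from treated, tumor-bearing animals, and no untreated mice are among the samples used here. Libraries are numbered 2, 4 and 20 in each group, and the study took tumor and colon as pairs.

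The colon epithelium is renewed from stem cells at the base of the crypts, which divide, place their daughters into a proliferating zone above and give rise to absorptive and secretory cells. Wnt signals, amplified by R-spondins through receptors of the Lgr family, keep these cells in the stem cell state, and BMP signals from the upper crypt oppose it. Some of the 10 genes mark the actively dividing crypt-base cells (*Lgr5*, *Ascl2*, *Smoc2*, *Rgmb*, *Olfm4*), while others (*Lrig1*, *Bmi1*, *Prom1*) have also been used in the mouse for slower-cycling or broader crypt populations, and *Sox9* and *Cd44* are found over the lower crypt.

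Total counts ranged from 16995481 to 20789620 per library. Levels are given as CPM, the count of a gene relative to the table's total in that library after TMM scaling, and as the deposited FPKM where genes are compared with each other. Fold changes set tumor against colon (n = 3 libraries each), and the adjusted p-values come from edgeR (quasi-likelihood, Benjamini-Hochberg over 18520 genes), with an approximate standard error (SE). Of all genes tested, 32.2% were called, 16.1% as higher and 16.1% as lower in tumor, and the median log2 change was 0.01. With libraries scaled to 12 pan-epithelial genes this split moved from 2981 higher and 2987 lower to 4000 higher and 2049 lower and the median to 0.18, and it was 3860 and 2350 by limma on log2(FPKM + 1) and 3911 and 2408 on log2(FPKM + 0.1).

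The comparison asked how the stem cell genes of the crypt differed between tumor and colon. Of the 10 genes, 9 passed the filter on low counts. Of these 9, 6 were higher in tumor (*Lgr5*, *Smoc2*, *Sox9*, *Cd44*, *Ascl2*, *Bmi1*), 2 were lower (*Rgmb*, *Lrig1*), and *Prom1* did not pass the threshold. The members thus did not move as one, and their log2 changes ran from -1.10 to 4.85 with a median of 1.32. *Olfm4* was close to absent from these libraries and was not tested in the main fit.

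**Figure D1:**
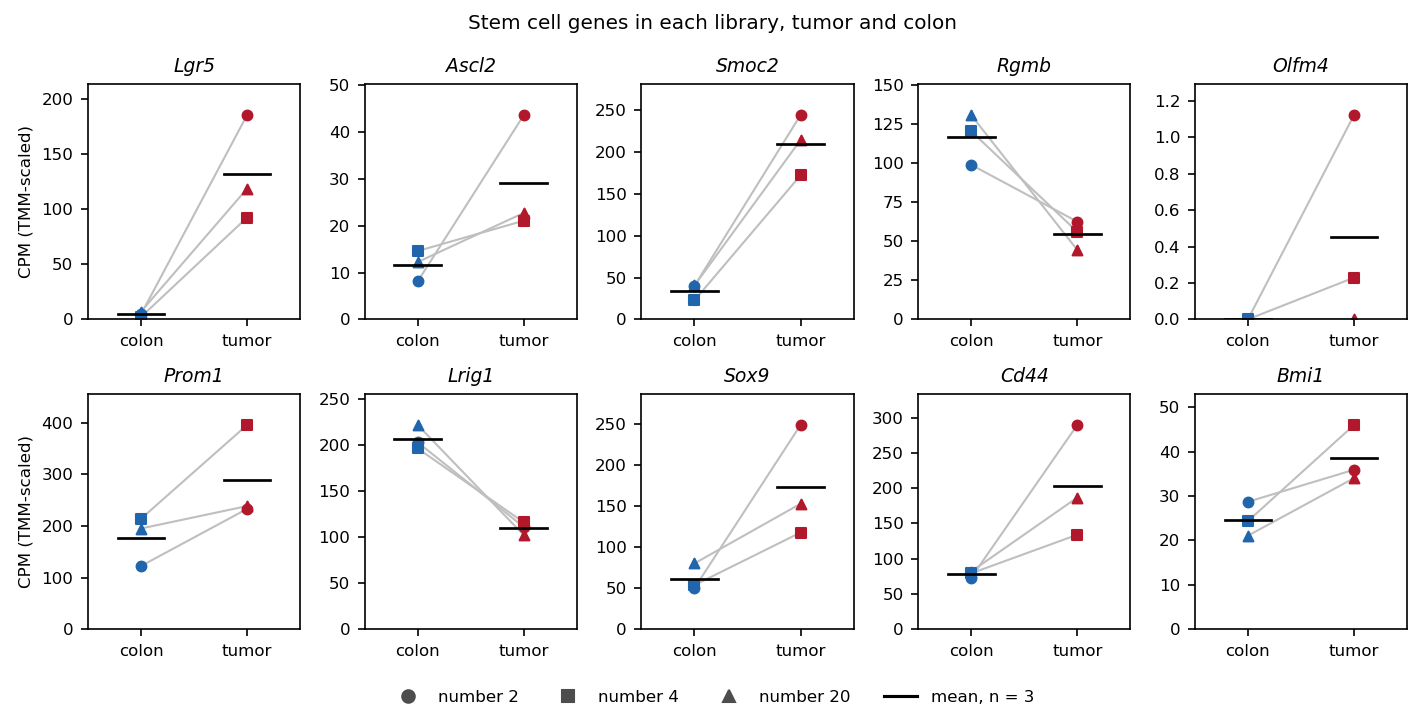
CPM of the 10 stem cell genes (vertical axis, linear from 0, its own range for each gene) in the colon (blue) and tumor (red) libraries, with grey lines joining libraries of the same number and black bars at the means of 3 libraries. *Lgr5* is between 2.15 and 7.02 CPM in colon and between 92.3 and 185 CPM in tumor, while *Rgmb* and *Lrig1* are lower in each tumor than in each colon.

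*Lgr5*, a receptor for R-spondins and the defining marker of dividing crypt-base stem cells (ENSMUSG00000020140, chromosome 10, 115286216 to 115423685, GRCm39, minus strand), had 185, 92.3 and 118 CPM in tumors 2, 4 and 20. It had 4.52, 2.15 and 7.02 CPM in colons 2, 4 and 20. The groups lay far apart, and the lowest tumor was above the highest colon. On average *Lgr5* rose from 4.56 ± 2.44 to 132 ± 47.9 CPM (SD, n = 3), which is 28.7-fold (log2 4.85, SE 0.46, edgeR adjusted p = 0.000673), and it was number 273 of the 18520 genes ordered from the highest log2 change. Its tumor over colon ratio was 41.0, 43.0 and 16.9 for numbers 2, 4 and 20. In such pieces of tissue, a change in the number of cells that express a gene and a change in RNA per cell cannot be told apart.

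*Smoc2*, a secreted matrix protein that also marks crypt-base cells in the mouse (ENSMUSG00000023886, chromosome 17, 14499768 to 14625052, plus strand), had 244, 172 and 215 CPM in the tumors and 40.1, 22.7 and 40.5 CPM in the colons. Each tumor was above each colon. The rise was 6.10-fold (log2 2.61 ± 0.25, edgeR adjusted p = 0.00069), with pair ratios of 6.10, 7.57 and 5.29. *Smoc2* is also made by stromal cells, and the fibroblast list is given below.

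*Rgmb*, a co-receptor of BMP signaling (ENSMUSG00000048027, chromosome 17, 16023450 to 16051301, minus strand), went the other way. It had 62.4, 55.9 and 44.4 CPM in the tumors and 98.7, 120 and 130 CPM in the colons, so that no tumor reached the lowest colon. It fell by 1.10 on the log2 scale (SE 0.16, edgeR adjusted p = 0.00329), which is 2.15-fold lower, and the colon over tumor ratio was 1.58, 2.15 and 2.94 for numbers 2, 4 and 20.

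*Lrig1*, a membrane protein that restrains ErbB receptors (ENSMUSG00000030029, chromosome 6, 94581510 to 94677139, minus strand), also fell. Its values were 111, 116 and 102 CPM in the tumors and 203, 196 and 222 CPM in the colons. No tumor overlapped a colon, and the libraries of each group lay close together, with a coefficient of variation of 6.37% in both tissues. The log2 change was -0.92 ± 0.10 (edgeR adjusted p = 0.0011). *Slc25a26* on the opposite strand overlaps *Lrig1*, with a count of at most 8.71% of that of *Lrig1* in any library, and opposite-strand genes over *Lgr5*, *Smoc2* and *Prom1* had at most 0.347%, 1.44% and 3.81% of the count of each. Whether the counting used strand is not given in the sources used here, and without it such reads are not separable.

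Of the regulators in the nucleus, *Ascl2*, the transcription factor that sets crypt-base stem cell identity (ENSMUSG00000009248, chromosome 7, 142520566 to 142523001, minus strand), had 43.6, 21.1 and 22.7 CPM in the tumors. It had 8.11, 14.6 and 12.2 CPM in the colons. Tumor 2 stood well above tumors 4 and 20, which were themselves above all colons. *Ascl2* rose 2.50-fold (log2 1.32 ± 0.34, edgeR adjusted p = 0.0244), but the pair ratio was 5.38 for number 2 and only 1.44 and 1.86 for numbers 4 and 20. The call was lost with the number as a block (edgeR adjusted p = 0.0704), without colon 2 (0.0629) and without colon 20 (0.0661), and it was kept without tumor 2, where the log2 change was 0.92.

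*Sox9*, a transcription factor of the lower crypt and of Paneth cells (ENSMUSG00000000567, chromosome 11, 112673050 to 112678586, plus strand), had 249, 118 and 153 CPM in the tumors and 50.1, 53.8 and 80.2 CPM in the colons. The groups did not overlap, with tumor 2 again the highest. It rose 2.82-fold (log2 1.497 ± 0.31, edgeR adjusted p = 0.0106). *Bmi1*, a Polycomb protein used as a marker of slower-cycling crypt cells (ENSMUSG00000026739, chromosome 2, 18681829 to 18691440, plus strand), changed least among the genes called higher. It had 35.9, 46.0 and 34.0 CPM in the tumors and 28.7, 24.3 and 21.1 CPM in the colons (log2 0.65 ± 0.17, edgeR adjusted p = 0.0277). Its call was lost without tumor 4 (edgeR adjusted p = 0.0679), colon 4 (0.0861) or colon 20 (0.0841).

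Of the surface markers, *Cd44*, a hyaluronan receptor and Wnt target (ENSMUSG00000005087, chromosome 2, 102641486 to 102732010, minus strand), had 290, 134 and 187 CPM in the tumors and between 73.1 and 81.8 CPM in the colons. Each tumor was above each colon, and the tumors were spread much more widely than the colons, with a coefficient of variation of 38.9% against 5.75%. *Cd44* rose 2.61-fold (log2 1.38 ± 0.26, edgeR adjusted p = 0.0081). It is also abundant on leukocytes, whose markers are given below.

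*Prom1*, which encodes the membrane protein CD133 (ENSMUSG00000029086, chromosome 5, 44150962 to 44259374, minus strand), had 233, 396 and 239 CPM in the tumors and 122, 214 and 195 CPM in the colons. All tumors lay above all colons, but only by a small margin between tumor 2 and colon 4. The difference did not pass the threshold (log2 0.71 ± 0.28, edgeR adjusted p = 0.0908). It passed with the replicate number as a block (edgeR adjusted p = 0.0289) and by DESeq2 (0.045), and over all 17 alternatives its adjusted p ran from 0.0289 to 0.225.

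*Olfm4*, a secreted glycoprotein that marks crypt-base stem cells in the mouse small intestine (ENSMUSG00000022026, chromosome 14, 80221521 to 80260579, plus strand), had 23, 5 and 0 counts in tumors 2, 4 and 20 and 0 counts in each colon. With the tumor counts pooled and the colon group set to a floor of 3 counts in all it was at least 8.89-fold higher in tumor, or at least 2.39-fold without tumor 2. These bounds leave out the spread between libraries. The 2 alternatives that tested *Olfm4* did not call it (adjusted p = 0.0712 by edgeR with no filter and 0.054 by DESeq2). At this depth the gene lay near the limit of detection, and most of its counts came from tumor 2.

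Over these 9 tested genes, 6 of which were called higher against 16.1% of all genes and 2 lower against 16.1%, the count of calls ran from 6 to 8 when 1 library was left out, with both falls kept each time. It was 6 without colon 20, where *Ascl2* and *Bmi1* were lost. The groups did not overlap for any of the 9, with the tumors above the colons for 7 and below for 2, against 25.3% and 24.2% of all genes tested. *Lgr5*, *Smoc2*, *Sox9*, *Cd44*, *Rgmb* and *Lrig1* were called in all 17 alternatives.

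**Figure D2:**
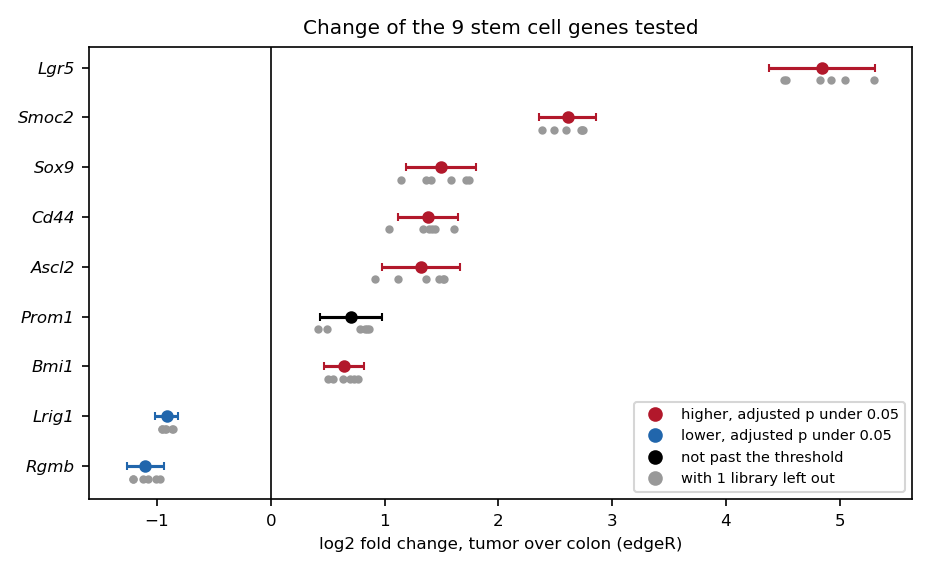
Log2 fold change of tumor over colon (horizontal axis, edgeR) for the 9 stem cell genes tested, with bars of 1 SE, red for higher, blue for lower and black for not past the threshold. The smaller grey points are the fits with 1 library left out, which stay on the same side of 0 for each of the 9 genes, from 4.51 to 5.30 for *Lgr5*.

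Promoters of the members are shown because genes that rose (*Ascl2*, *Cd44*) can be set beside genes that fell (*Lrig1*, *Rgmb*). Each window runs from 250 bases before to 50 bases after the transcription start in RefSeq's table of the GRCm38.p6 build, 5′ to 3′ on the gene's strand. The table held 10 windows of 7 of the 10 members, and *Lgr5*, *Smoc2* and *Sox9* are named only. Capitals mark the letters GGGCGG, known as the GC box, the letters CCAAT, which NF-Y binds, or the letters TATAAA, known as the TATA box, each on either strand. The windows are chr7:142969215-142969514 for *Ascl2*, chr2:102901616-102901915 for *Cd44*, chr6:94700096-94700395 for *Lrig1* and chr17:15831197-15831496 for the first of 3 windows of *Rgmb*, all on the minus strand.
Ascl2: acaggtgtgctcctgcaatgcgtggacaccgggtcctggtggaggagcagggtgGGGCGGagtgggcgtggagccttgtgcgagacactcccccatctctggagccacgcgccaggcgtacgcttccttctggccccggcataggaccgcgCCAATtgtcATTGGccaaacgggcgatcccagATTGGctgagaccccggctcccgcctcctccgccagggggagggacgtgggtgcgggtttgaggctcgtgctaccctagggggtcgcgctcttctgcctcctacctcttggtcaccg
Cd44: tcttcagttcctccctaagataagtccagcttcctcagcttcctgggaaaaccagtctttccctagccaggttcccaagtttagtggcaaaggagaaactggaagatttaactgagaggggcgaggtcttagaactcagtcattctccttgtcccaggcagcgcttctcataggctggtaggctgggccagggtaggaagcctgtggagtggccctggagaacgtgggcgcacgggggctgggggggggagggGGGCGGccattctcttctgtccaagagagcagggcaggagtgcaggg
Lrig1: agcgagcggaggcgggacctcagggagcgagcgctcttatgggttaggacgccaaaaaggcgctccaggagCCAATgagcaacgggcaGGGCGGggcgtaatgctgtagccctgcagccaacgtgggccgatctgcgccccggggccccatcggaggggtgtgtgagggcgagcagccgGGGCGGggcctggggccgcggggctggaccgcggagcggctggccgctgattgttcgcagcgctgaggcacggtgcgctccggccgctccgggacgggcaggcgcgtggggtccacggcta
Rgmb: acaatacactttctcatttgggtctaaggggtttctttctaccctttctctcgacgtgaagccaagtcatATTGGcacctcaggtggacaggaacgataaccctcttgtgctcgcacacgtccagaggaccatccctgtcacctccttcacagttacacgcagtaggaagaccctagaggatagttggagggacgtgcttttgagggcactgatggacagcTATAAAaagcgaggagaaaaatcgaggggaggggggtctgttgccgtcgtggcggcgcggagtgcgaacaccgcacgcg

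The *Ascl2* window held 1 GC box and 3 CCAAT boxes and was 67% G or C with 23 CpG sites. The *Lrig1* window held 2 GC boxes and 1 CCAAT box in 73% G or C with 35 CpG sites, and the first *Rgmb* window held 1 CCAAT box and 1 TATA box at 54% G or C. The *Cd44* window held 1 GC box, at 58% G or C and 6 CpG sites. The median of all 32851 windows was 52.7% G or C and 7 CpG sites. GC boxes were thus found at genes of both directions. A GC box was in 7 of the 10 member windows and 35.7% of all windows, and a CCAAT box in 6 of the 10 and 37.4%. The core letters bound by TCF/LEF factors (CTTTG followed by AA, AT, TA or TT, either strand) were in 0 of the 10 member windows and 16.9% of all windows, which says only that these letters are not in these windows. The first and second windows of *Rgmb* overlap, so the 10 are not independent.

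The next comparison asked how the members ranked against each other within each tissue, by FPKM, which divides by exon length. In colon *Lrig1* was the highest at 35.6 ± 1.81 FPKM, followed by *Prom1* at 23.6, *Rgmb* at 14.5, *Sox9* at 14.2 and *Cd44* at 11.04 FPKM. Below these came *Ascl2* at 6.87, *Bmi1* at 5.97 and *Smoc2* at 4.75 FPKM, then *Lgr5* at 0.425 ± 0.222 FPKM, with *Olfm4* listed at 0. The libraries of neighbours in this order overlapped for *Rgmb* and *Sox9*, for *Ascl2* and *Bmi1* and for *Bmi1* and *Smoc2*, and were apart for the others. *Lgr5* therefore stood alone in colon, below every other member but *Olfm4*.

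In tumor the order changed. *Sox9* had 43.8 ± 17.6 FPKM, *Prom1* 42.1, *Smoc2* 31.6, *Cd44* 31.3, *Lrig1* 20.5, *Ascl2* 18.8, *Lgr5* 13.4 ± 4.997 and *Bmi1* 10.1 FPKM. From *Sox9* down to *Bmi1* each gene overlapped the next, so the order of neighbours here was not resolved by 3 libraries. Genes further apart could still be separate. The lowest tumor had 29.95 FPKM of *Sox9* and 33.99 FPKM of *Prom1*. Both were above the highest tumor of *Ascl2* (28.4), *Lrig1* (21.8), *Lgr5* (19.0) and *Bmi1* (12.2). *Rgmb* followed at 7.39 FPKM, apart from *Bmi1*, and *Olfm4* had 0.40, 0.081 and 0 FPKM in tumors 2, 4 and 20. *Rgmb* went from among the upper members in colon to the lowest of the 9 well-detected members in tumor.

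**Figure D3:**
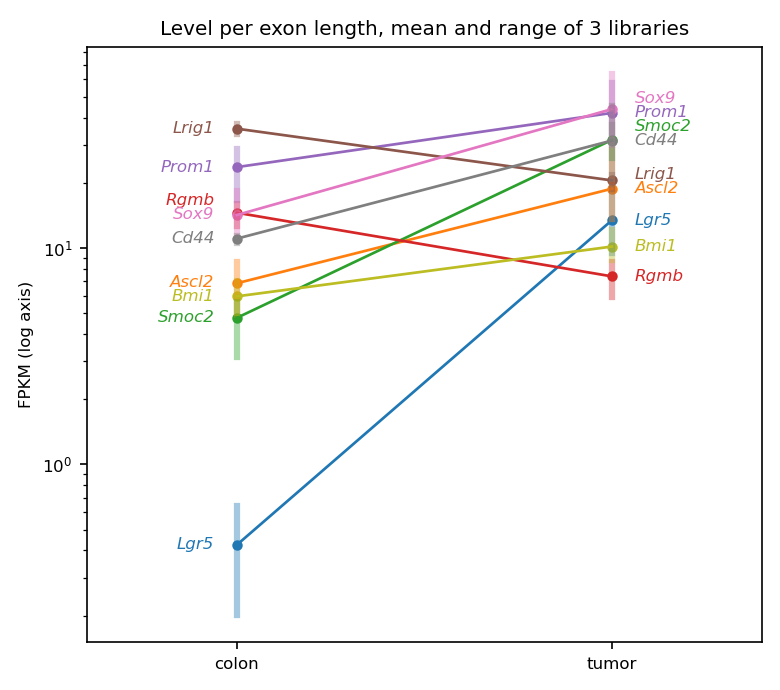
FPKM (vertical log axis) of 9 stem cell genes in colon and tumor, with points at the mean of 3 libraries, pale bars over the range of the libraries and a line per gene. *Lgr5* goes from 0.425 to 13.4 FPKM, while the lines of *Lrig1* and *Rgmb* descend through the others; *Olfm4*, listed at 0 in colon, has no place on a log axis and is left out.

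How far the change of *Lgr5* lay from that of each fellow member was taken from the difference itself. *Lgr5* had the largest log2 change of the tested members (4.85). The direction against each of them was therefore set in advance, and only the sizes are described. The log2 CPM of *Lgr5* minus that of each other member was taken in each library and compared between the groups by an exact two-sided permutation test, over 9 such comparisons. This signed difference was higher in tumor than in colon for every member. It rose by 2.27 for *Smoc2*, 3.46 for *Sox9*, 3.60 for *Cd44* and 3.64 for *Ascl2*. The rise was 4.21 for *Prom1*, 4.27 for *Bmi1*, 5.83 for *Lrig1* and 6.02 for *Rgmb*. In colon its mean was below 0 for each of these, from -5.62 for *Lrig1* to -1.44 for *Ascl2*. In tumor it ran from -1.15 for *Prom1* to 2.20 for *Ascl2*. *Lgr5* thus stayed below *Smoc2*, *Sox9*, *Cd44* and *Prom1* in tumor but lay nearer to them. For each comparison the 3 tumors lay apart from the 3 colons, with an exact permutation p = 0.1 and adjusted p = 0.1, the smallest that 3 against 3 libraries can give. The design thus cannot pass the threshold here, and the value for *Olfm4* depends on the prior count and is not given. Among the tumors, the distance of *Lgr5* varied least to *Sox9* (-0.38 ± 0.04, SD) and *Cd44* (-0.61 ± 0.07), named after the values were seen. For the other members but *Olfm4* the tumor SD ran from 0.16 for *Ascl2* to 0.89 for *Prom1*. In colon the distances to *Sox9* and *Cd44* varied by 0.64 and 0.83 (SD), with only 35 to 128 counts of *Lgr5* per library.

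The tumors differed among themselves. Tumor 2 was the highest tumor for 7 of the 10 members and tumor 4 for 3, while tumor 4 was the lowest for 5. The same shares over all genes were not taken, so these counts are not read as particular to the members. Tumor 2 exceeded the mean of the other tumors 1.99-fold for *Ascl2*, 1.84-fold for *Sox9*, 1.81-fold for *Cd44* and 1.76-fold for *Lgr5*. For *Smoc2* and *Rgmb* this ratio was 1.26 and 1.24, for *Lrig1* 1.02, for *Bmi1* 0.898 and for *Prom1* 0.735. *Ascl2*, *Sox9*, *Cd44* and *Lgr5* thus shared their highest library, and *Prom1* and *Bmi1* were highest in tumor 4. The coefficient of variation between tumors was 43.1% for *Ascl2*, 39.2% for *Sox9* and 36.3% for *Lgr5*, against a median of 16.8% over all genes tested. It was 38.9% for *Cd44* and 31.9% for *Prom1*, but only 17.2% for *Smoc2*, 16.8% for *Rgmb*, 16.6% for *Bmi1* and 6.37% for *Lrig1*, so about as wide as the median gene or narrower for these 4. Tumor 2 also had the highest summed fibroblast (2557 CPM) and neutrophil markers (220.8 CPM) of the tumors and the lowest goblet cell (3239 CPM) and colonocyte markers (328.4 CPM), and the part of these in the spread was not tested.

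**Figure D4:**
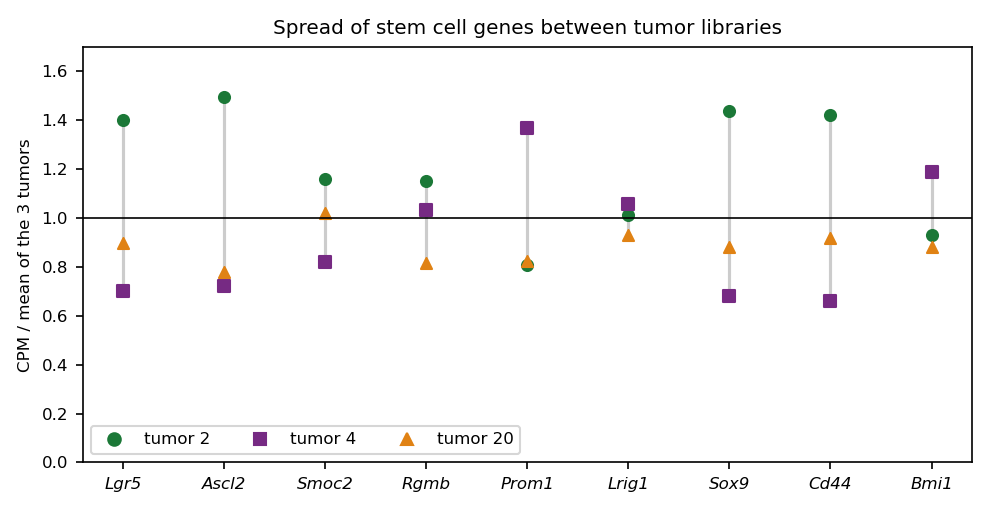
CPM of 9 stem cell genes in each tumor library divided by the mean of the 3 tumors (vertical axis, from 0), with the black line at 1. Tumor 2 (green circles) is the highest for *Lgr5*, *Ascl2*, *Smoc2*, *Rgmb*, *Sox9* and *Cd44*, tumor 4 (purple squares) for *Prom1*, *Lrig1* and *Bmi1*, and the 3 tumors lie closest together for *Lrig1*.

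In the Lgr receptor family, *Lgr5* took a larger share in tumor. It held 47.8%, 24.4% and 33.9% of the summed FPKM of *Lgr4*, *Lgr5* and *Lgr6* in tumors 2, 4 and 20, and 1.13%, 0.718% and 2.99% in colons 2, 4 and 20. *Lgr4*, the member expressed throughout the epithelium, held the remainder of colon almost alone, from 97.0% to 99.3%. Its own level was 121 ± 16.9 CPM in tumor and 176 ± 48.5 CPM in colon, which did not pass the threshold (log2 -0.54 ± 0.21, edgeR adjusted p = 0.0906). Leaving out colon 20 gave a call in the lower direction (edgeR adjusted p = 0.0349). *Lgr6*, known as a marker of stem cells in the skin, had 1148 counts in the tumors together and 3 in the colons, a ratio of 365 with a 95% counting interval of 124.5 to 1771. The shift within the family therefore came with rises of *Lgr5* and *Lgr6*.

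Other genes of the crypt base were taken from a list of 18 Wnt-responsive and crypt-base genes, written with earlier results of these data known. Of these 10 were higher, 1 was lower and 7 did not pass, against 16.1% higher and 16.1% lower over all genes. Their median log2 change was 0.62 against 0.01 for all genes. The rises were led by *Sp5*, a Wnt target transcription factor (log2 7.57 ± 0.36, edgeR adjusted p = 9.15e-05), which had 34.3 to 61.2 CPM in the tumors and 0.18 to 0.27 CPM in the colons. Among the genes called higher were negative regulators of Wnt signaling, chosen here after their values were seen. *Znrf3* and *Rnf43*, ubiquitin ligases that remove Wnt receptors, changed by 2.20 ± 0.11 and 2.99 ± 0.19 (edgeR adjusted p = 0.00011 and 0.000211). *Axin2*, a scaffold of the beta-catenin destruction complex, went from 46.0 ± 20.6 to 400.4 ± 51.1 CPM.

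*Msi1*, an RNA-binding protein of crypt cells, went from 0.972 ± 0.42 to 19.1 ± 4.53 CPM, and *Tnfrsf19*, also called Troy, from 5.71 ± 1.76 to 74.2 ± 18.2 CPM. *Slc14a1*, *Gkn3*, *Ephb3* and *Soat1* were the other genes called higher. The Ephrin receptors, which position cells along the crypt, had smaller differences, with log2 0.69 ± 0.16 for *Ephb3* (edgeR adjusted p = 0.0178) and 0.54 ± 0.21 for *Ephb2* (0.0905). *Slc12a2*, a chloride co-transporter enriched in the lower crypt, had 379 ± 45.2 and 364 ± 97.2 CPM, and *Clca3b* had 360.1 ± 235 and 485 ± 201 CPM. *Aqp4*, a water channel, had 24.5, 159 and 103 CPM in the tumors and 96.7, 606 and 934 CPM in the colons, with overlapping groups and adjusted p = 0.0693 in edgeR. The fall of *Aqp4* was called with the replicate block (edgeR adjusted p = 0.00682), without colon 2 (0.0228) and with no filter on low counts (0.0287). The single gene called lower was *Nrn1*, at 0.505 ± 0.13 and 2.29 ± 0.69 CPM. The count of higher genes ran from 7 to 10 when 1 library was left out, with 7 reached without colon 4, where *Ephb3*, *Gkn3* and *Soat1* were lost.

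**Figure D5:**
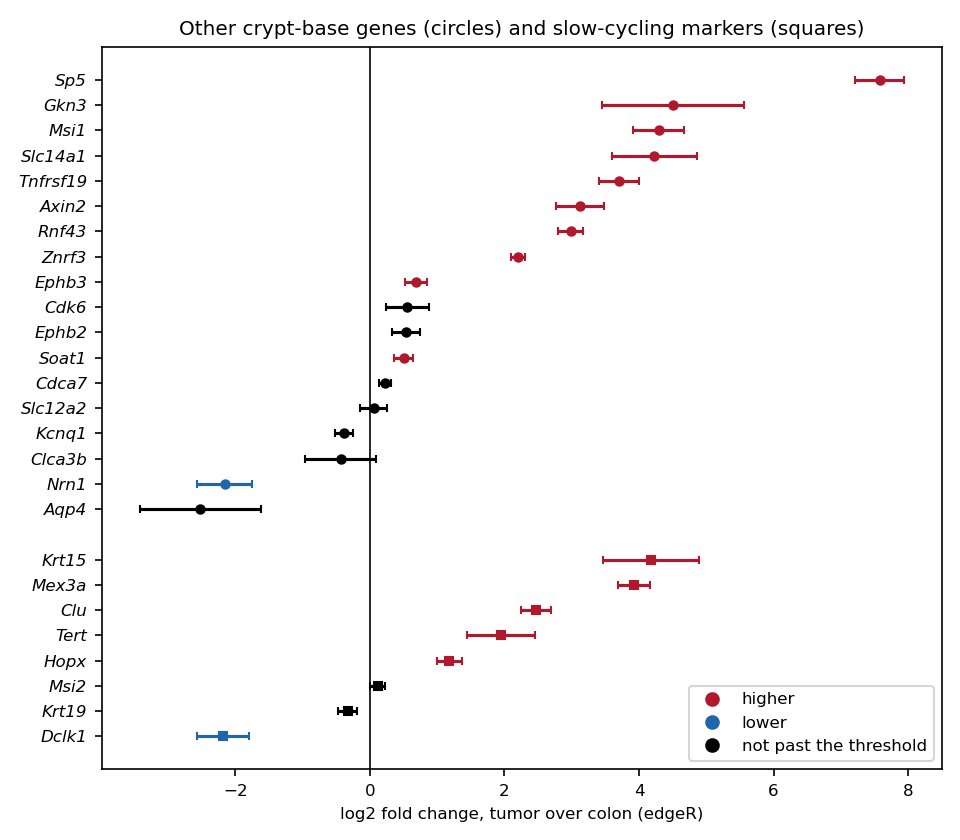
Log2 fold change of tumor over colon (horizontal axis, edgeR) with bars of 1 SE for 18 other crypt-base genes (circles, top) and 8 slow-cycling or facultative stem cell markers (squares, bottom), red for higher, blue for lower and black for not past the threshold. *Sp5* is at 7.57 and *Nrn1* at -2.16 among the former, and *Krt15* is at 4.17 and *Dclk1* at -2.18 among the latter.

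Markers of slow-cycling or facultative stem cells, which can refill the crypt after injury, were a list of 8 genes. Of these 5 were higher and 1 lower (median log2 1.57), against 16.1% higher and 16.1% lower over all genes. *Clu*, clusterin, which marks revival stem cells in the injured mouse intestine, had 630, 421 and 480 CPM in the tumors and 117, 86.3 and 72.7 CPM in the colons (log2 2.47 ± 0.23, edgeR adjusted p = 0.00059). *Mex3a*, an RNA-binding protein of a slow-cycling subset of *Lgr5* cells, had 116, 67.0 and 98.3 CPM in the tumors against 6.75, 6.32 and 5.43 CPM in the colons (log2 3.93 ± 0.23, edgeR adjusted p = 0.000173). Both were thus well apart in the groups. *Hopx*, *Tert* and *Krt15* also rose, by log2 changes of 1.18, 1.95 and 4.17. The call of *Tert* was lost without tumor 2, tumor 20 or colon 4 (edgeR adjusted p = 0.0587, 0.0684 and 0.089). *Krt19*, a keratin of the simple epithelium and the most abundant of the list, had 1767 ± 223 and 2218 ± 271 CPM (edgeR adjusted p = 0.12). *Dclk1*, a marker of tuft cells, fell by 2.18 on the log2 scale (SE 0.39, edgeR adjusted p = 0.00634).

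Of 14 tested genes among 16 for R-spondin, Wnt and Notch signals of the niche, 4 were higher and 5 lower (median log2 0.17). The shares over all genes were 16.1% higher and 16.1% lower. *Wnt3*, a Wnt ligand made by Paneth cells in the mouse small intestine, had 220 counts in the tumors together and 3 in the colons, a ratio of 69.9 with a 95% counting interval of 23.6 to 341.5. All 3 colon counts were in colon 2, and with that library left out and the other colons set to a floor of 3 counts in all, *Wnt3* was at least 46.1-fold higher. *Notch1*, a receptor that holds crypt cells in the undifferentiated state, rose from 76.1 ± 3.51 to 148 ± 22.6 CPM (edgeR adjusted p = 0.00233). *Rspo3*, an R-spondin of the crypt stroma, fell from 9.29 ± 2.01 to 1.68 ± 0.586 CPM (edgeR adjusted p = 0.00265). *Atoh1*, the transcription factor of secretory fate that Notch signals hold down, fell from 81.3 ± 22.03 to 17.0 ± 8.45 CPM (edgeR adjusted p = 0.00749). Another R-spondin, *Rspo4*, named after its values were seen, was called higher, with 0.893 ± 0.414 CPM in tumor and 1 count in the colons together (edgeR adjusted p = 0.00686). The list thus held both directions, also among the R-spondin ligands.

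Proliferation genes of the dividing zone did not pass the test. Of 15 such genes 0 passed in either direction by edgeR, DESeq2 or limma-voom, and in each tool 2 had an unadjusted p under 0.05 in the higher direction and 0 in the lower. Their median log2 change was 0.17, and over all genes edgeR called 16.1% higher and 16.1% lower. *Mki67*, a marker of cycling cells, had 198, 322 and 266 CPM in the tumors and 265, 218 and 325 CPM in the colons, fully overlapping. Without tumor 2, *Top2a* and *Rrm2* were called higher, and without colon 2, *Mcm2* and *Mcm7* were, and without colon 20, *Ccnb1* was.

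Other cell types differed between the tissues in the same libraries. Their counts of calls stand against 16.1% higher and 16.1% lower over all genes. Pan-epithelial genes summed to 10503 to 11946 CPM in tumor and 11529 to 13148 CPM in colon, with 1 of 12 called higher and 1 lower. Smooth muscle genes summed to 365.7 to 834.5 CPM in tumor and 7763 to 8080 CPM in colon, and 8 of 8 were lower. Colon thus held muscle RNA at a level that no tumor reached, although its cell type label names colon cells only, and 8 of 8 genes of enteric nerve and glia and 3 of 3 of interstitial cells of Cajal were lower too. Goblet cell genes were lower for 6 of 8 (3239 to 8767 CPM against 20930 to 52780 CPM) and colonocyte genes for 5 of 8 (328.4 to 1013 CPM against 1663 to 3633 CPM).

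The counts that follow also stand against 16.1% of all genes in each direction. Of 7 genes of deep crypt secretory and Paneth cells 5 were higher, with 1730 to 3696 CPM against 535.5 to 1389 CPM, and *Defa17* had no count in colon. *Lyz1* was the largest part of the tumor sum, at 863, 2224 and 1561 CPM in tumors 2, 4 and 20. *Reg4* and *Ang4* did not pass, and both means were lower in tumor (289 against 330 and 134 against 556 CPM). Neutrophil genes were higher for 6 of the 6 tested of 8 (87.8 to 220.8 CPM against 1.59 to 6.81 CPM), and *Mmp8* and *Ngp* had no count in colon. Fibroblast genes were higher for 2 of 7 and lower for 1 (1663 to 2557 CPM against 1298 to 2051 CPM), and other leukocyte genes higher for 3 of 9 and lower for 1 (159.5 to 209.1 CPM against 120.6 to 171.1 CPM). Both latter sums overlapped between the groups, and their counts of higher genes rested on single libraries, with 0 fibroblast genes without tumor 2, colon 4 or colon 20, and 0 leukocyte genes without tumor 20, colon 4 or colon 20. There was 1 such fibroblast gene without tumor 20 and 1 such leukocyte gene without tumor 2. Of the goblet cell genes 3 were lower without tumor 20, and also when the 5 most abundant genes were dropped, which left *Muc2*, *Fcgbp* and *Clca1* untested. The part of these cells in the changes of the stem cell genes was not tested. Scaled to the pan-epithelial genes instead, the same 8 members were called in the same directions, with log2 changes of 4.999 for *Lgr5*, 2.77 for *Smoc2*, -0.74 for *Lrig1* and -0.92 for *Rgmb*.

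The genes whose pattern over the 6 libraries was most like that of *Lgr5* were *Bex1*, *Gprin2*, *Kif26b*, *Mmp12* and *Zfp469*, by the Euclidean distance of centred log2 CPM among 12110 genes with a mean of at least 5 CPM. Predicted genes, with Gm or Rik names, were left out of this search. *Bex1* was much the nearest, at a distance of 0.426, and the other 4 lay between 1.03 and 1.09. Its mean was 36.1 CPM in tumor and 1.26 CPM in colon. For *Ascl2* the nearest genes were *Stac* (0.297), *Hk3* (0.388), *Afap1l1* (0.418), *Cbx6* (0.428) and *Sdc1* (0.484). These distances describe these 6 libraries only.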

How the data were processed

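RNA was taken from frozen tumor and colon tissue, and the library kit was a stranded one for mRNA. Per the submitters' processing notes, reads were handled with cutadapt and HISAT on build GRCm39. Tool versions, the counting tool and whether it used strand: not given in the sources used here. Fragment counts per gene, not normalized, were deposited with FPKM values, which the authors computed from these counts, the exon length and the library total.

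The count test was run with edgeR 4.0.16 in R 4.3.3, using TMM, filterByExpr and the quasi-likelihood test at a Benjamini-Hochberg adjusted p of 0.05. SE is the log2 change over the root of F. Groups follow the labels. Whether each number is 1 animal is not stated, and p-values then measure only the spread of these samples, which may be technical. The series text states paired tissues, so equal numbers were taken as pairs; over genes, r between the deviations of each such pair was 0.19, 0.12 and 0.02 (2, 4 and 20), and the highest r of these tumors with a colon of another number was -0.09, 0.12 and 0.02, so that the values single out the pair for number 2 only. The study compared the groups unpaired, and so did the main test.

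Alternatives were RLE, upper quartile and pan-epithelial scaling, no filter, at least 1 CPM in 3 libraries, DESeq2 1.42.0, limma-voom (limma 3.58.1), limma on log2 FPKM with pseudocounts of 1 and 0.1, the replicate block, dropping the 5 genes that exceeded 1% of the counts in any library, and leaving out each library. Scripts were tested on simulated data. Members and lists were chosen with earlier results of these data known. Named genes were all members, of each other list up to 2 with the lowest adjusted p and 2 with the highest CPM, and the nearest 5 genes to *Lgr5* and *Ascl2*; others in the lists were named after their values were seen. Log2 CPM had a prior count of 2. Intervals and floors cover counting error only.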

Additional observations from a re-analysis of the deposited data

How the results depend on the processing

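Over 17 alternatives the stem cell genes kept their direction, and the number called higher was 6 to 7 under other settings and 4 to 6 with 1 library left out, while 2 were lower in each. With the replicate block, which takes equal numbers as pairs, *Ascl2* lost its call (log2 1.27) and *Prom1* gained one (0.70), and 3 other crypt-base genes were lower in place of 1 (*Nrn1*, *Aqp4*, *Kcnq1*). With no filter 2 were lower (*Nrn1*, *Aqp4*), and with 1 library left out 1 to 2. Of the proliferation genes 1 was called higher with pan-epithelial scaling (*Mcm7*) and 1 by limma on log2(FPKM + 0.1) (*Ccnb1*), and 0 to 2 with 1 library left out. The near-zero change of *Slc12a2* ran from -0.0673 to 0.299 with 1 library left out, and had the other sign without tumor 2 (-0.0021), colon 2 and colon 4 (-0.04). *Soat1* lost its call with the block (edgeR adjusted p = 0.0572). The causes were not tested. The block changed no other call among the genes named in the text except *Aqp4*, *Kcnq1* and *Notch2*.

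With 3 libraries per group, the call of *Bmi1* (log2 0.65) depended on single libraries, with log2 changes from 0.50 to 0.76 when 1 was left out. *Olfm4* lay near the limit of detection at this depth.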
